A study of Macaca mulatta with 24 samples.

Results

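The genes described here are the antigen processing and presentation machinery of the colon, measured in rhesus macaques after total-body irradiation (TBI). They were chosen by gene symbol from a list of 10 genes, and 6 of the 10 were found by symbol on the array, with 11 probes. Of these 6, TAP1, TAPBP, B2M, PSMB9 and NLRC5 belong to the class I pathway and CD74 to the class II pathway. PSMB8 carried no symbol and was matched only through a gene ID behind a LOC number, so its 2 probes are given beside the 6 and outside every count. TAP2, CIITA and CTSS had no matching probe name and were not analysed here. The 6 genes are part of 14491 named genes on the array, of which 13457 were tested.

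Class I molecules display peptides from proteins made inside a cell to CD8 T cells, and nearly every nucleated cell carries them. The proteasome cuts the peptides, a transporter moves them into the endoplasmic reticulum, and tapasin helps load them onto a heavy chain held by its light chain. Class II molecules display peptides from material taken up from outside to CD4 T cells and are made mainly by macrophages, dendritic cells and B lymphocytes, and by gut epithelium when it is inflamed. Interferon gamma is the best known inducer of both pathways. The genes of the transporter, of tapasin and of the immunoproteasome subunits PSMB8 and PSMB9 lie inside the MHC region.

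The colons came from young-adult male animals, and each animal gave 1 array. The controls were 4 sham-irradiated animals labelled day 4, which served both doses and every day. Single whole-body doses of 6.7 or 7.4 Gy of cobalt-60 gamma rays were given to the others, which were taken on day 4 (4 animals per dose), day 7 (4 per dose) and day 12 (2 per dose). The samples were segments of whole gut wall, so a lower level may mean fewer cells of a type or less RNA per cell, which cannot be told apart.

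All levels are log2 signals relative to the 75th percentile of the same array. On each array 66.6% to 84.8% of the probes were well above background, and the 75th percentile lay between 550.7 and 963.6 intensity units. Pairs of arrays inside a group had correlations of 0.963 to 0.985 over the probes. The tissue label held: 10 of 10 colon epithelium markers and 3 of 3 smooth muscle markers with a value on all 24 arrays were well above background on all of them. The summed epithelial markers ranged from 826 to 1030 times the 75th percentile in controls, from 397 to 638 on day 4 after 6.7 Gy, from 377 to 501 on day 4 after 7.4 Gy, and from 825 to 1013 on days 7 and 12.

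None of the 6 genes was called in any of the 14 comparisons, where a call needs an adjusted p under 0.05 (limma, Benjamini-Hochberg over all probes) and at least a 2-fold change. The methods' t-test also called 0. At an unadjusted p under 0.05 (limma), between 0 and 2 of the 6 passed in a comparison, against 1.78% to 40.6% of all named genes. The 2 passed in day 7 against day 4 over both doses, where the share of all named genes was 40.6%. Of all named genes, 4.24% were called on day 4 after 6.7 Gy, 8.23% on day 4 after 7.4 Gy, 0.386% and 0.498% on day 7 after the lower and the higher dose, and 0.0149% on day 12 after either dose. Day 12 of both doses against control called 0.0594%. Thus 0 of 6 lay near the background on days 7 and 12, where almost no gene was called. On day 4 the background itself gives fewer than 1 call among 6 genes.

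**Figure D1:**
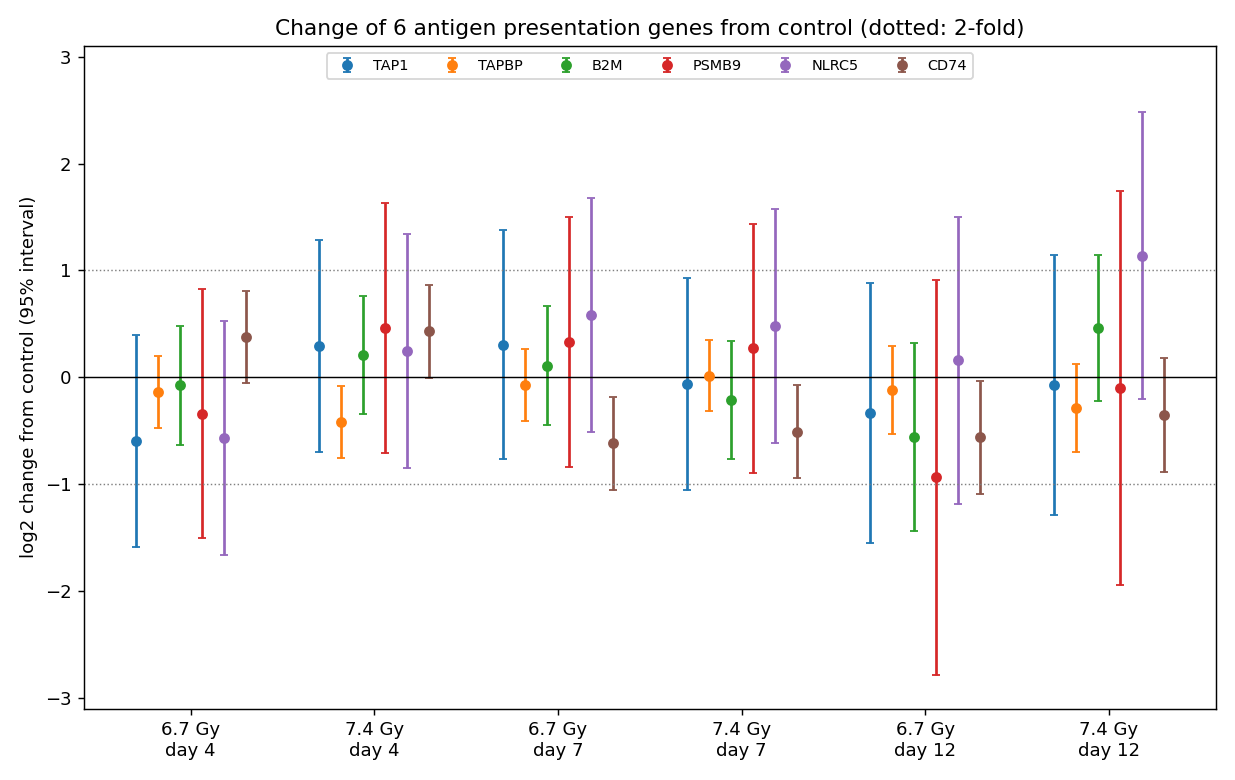
Change from control (vertical axis, log2) of the 6 genes in the 6 irradiated groups (horizontal axis); points are fitted differences, bars are 95% intervals, and dotted lines mark a 2-fold change. The intervals of PSMB9, NLRC5 and TAP1 are the wide ones, and CD74 lies above 0 on day 4 and below 0 on days 7 and 12.

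The member whose level depended most on time was CD74, the invariant chain that escorts class II molecules to the compartment where peptides are loaded and blocks their groove on the way (probe A_01_P1753501). The controls stood at 2.78, 3.30, 3.37 and 3.13. On day 4 the levels were 3.59, 3.81, 3.76 and 2.93 after 6.7 Gy and 3.59, 3.39, 3.58 and 3.74 after 7.4 Gy. All 4 animals on day 4 after the higher dose lay above every control, though the lowest did so by little, and 3 of 4 did after the lower dose. On day 7 the levels were 2.36, 2.59, 2.31 and 2.85 after 6.7 Gy and 3.15, 2.74, 2.38 and 2.27 after 7.4 Gy. On day 12 they were 2.69 and 2.47 after 6.7 Gy and 2.86 and 2.73 after 7.4 Gy. In 7 of the 8 animals on day 7, and in all 4 on day 12, CD74 was below every animal on day 4.

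Over both doses, CD74 was lower on day 7 than on day 4 by a log2 difference of -0.97 (SE 0.15, adjusted p = 0.00016 in limma). That is a 1.95-fold difference (95% interval 1.58 to 2.42), just short of the 2-fold threshold. The adjusted p alone was under 0.05 for 1 of the 6 genes in this comparison, against 28.4% of all named genes, and 14.1% of all named genes were lower by that rule. With the fold threshold, 5.05% of named genes were called. The CD74 difference between day 12 and day 4 was -0.86 (SE 0.18, adjusted p = 0.0021), a 1.82-fold difference (1.40 to 2.36). In that comparison 26.7% of named genes passed the adjusted p alone, 12.2% of all named genes were lower by that rule, and 7.65% were called. Days 7 and 12 differed by 0.11 ± 0.18 (SE), which did not pass the test (adjusted p = 0.90).

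Against control, CD74 differed by 0.38 (SE 0.21, adjusted p = 0.26) on day 4 after 6.7 Gy and by 0.43 (SE 0.21, adjusted p = 0.15) after 7.4 Gy. On day 7 the differences were -0.62 (adjusted p = 0.27) and -0.51 (adjusted p = 0.35), and on day 12 they were -0.56 (adjusted p = 0.68) and -0.35 (adjusted p = 0.86). None passed, so the time course is shown between irradiated groups and not against the controls. The 2 doses gave CD74 levels 0.05 apart on day 4 (95% interval -0.38 to 0.49), 0.11 apart on day 7 (-0.32 to 0.54) and 0.21 apart on day 12 (-0.40 to 0.82).

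Arrays were laid out 4 to a slide on 6 slides, and each slide held animals of several groups. Within slides, CD74 was lower on day 7 than on day 4 on 6 of 6 slides, by -1.39 to -0.43. It was lower on day 12 than on day 4 on 4 of the 4 slides that held both, by -1.05 to -0.73. Controls lay at position 1 of the slide, day 4 arrays at positions 1 and 2, and later arrays at positions 3 and 4. Position and day therefore cannot be told apart here, and the same holds for days 7 and 12 against control.

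**Figure D2:**
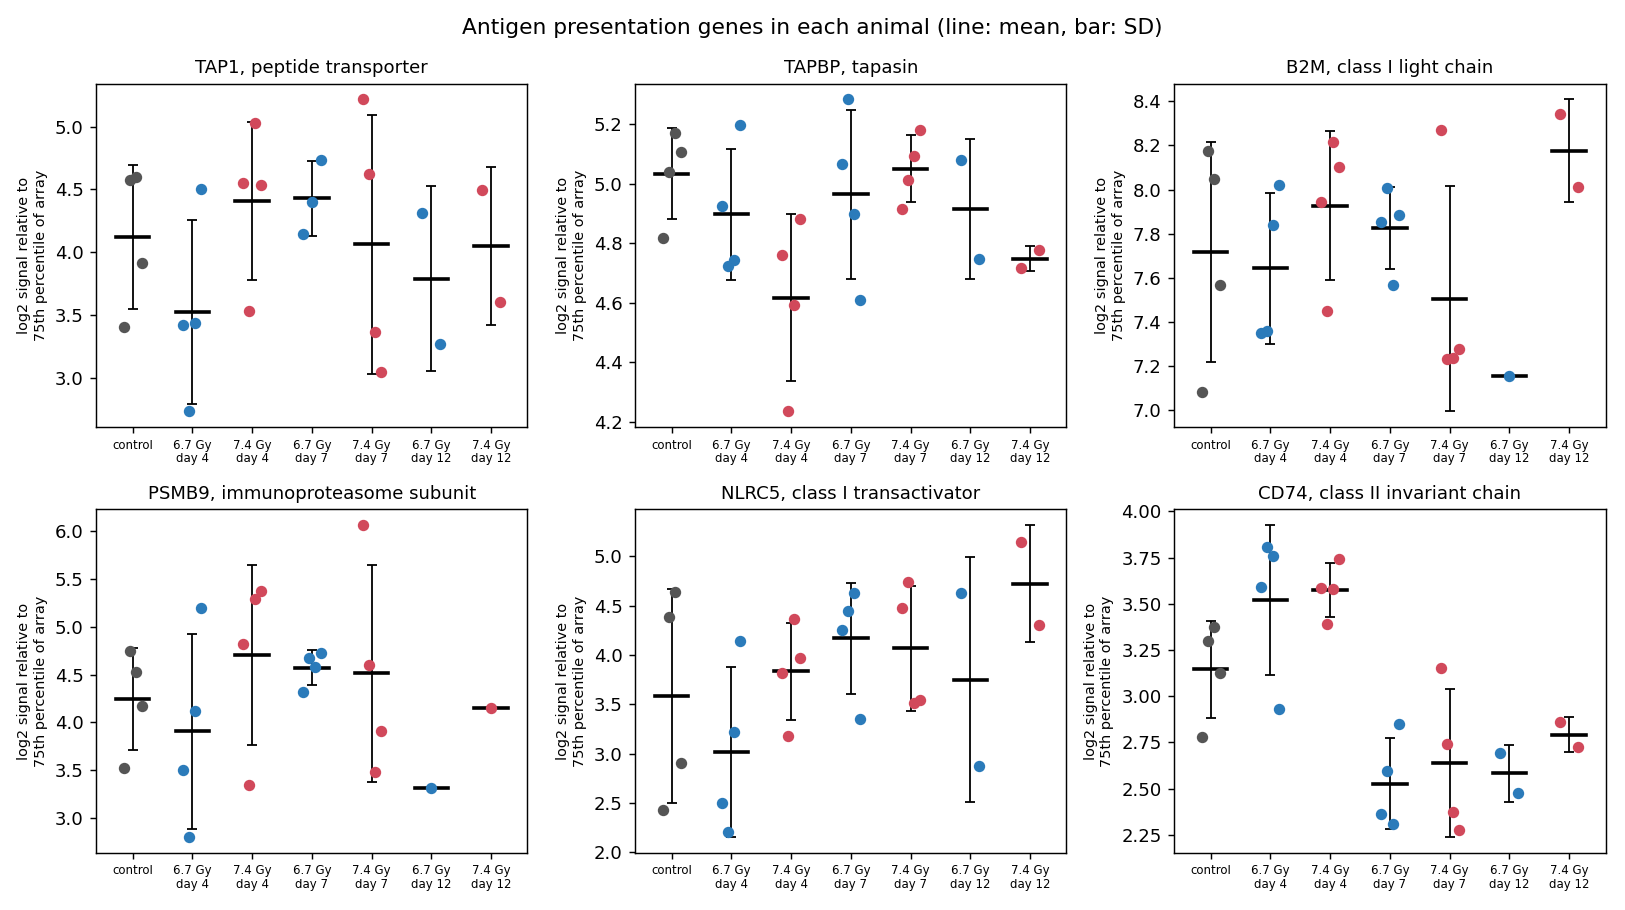
Level of each of the 6 genes in each animal (vertical axis, log2 signal relative to the 75th percentile of the array, with a separate scale per gene) by group (horizontal axis); points are animals, grey for control, blue for 6.7 Gy and red for 7.4 Gy, lines are means and bars are SD. CD74 lies lower on days 7 and 12 than on day 4 in all but 1 animal, and PSMB9, NLRC5 and TAP1 spread widely inside most groups.

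CD74 fell from day 4 to day 7 together with other genes of the class II pathway. The array measured 9 MHC class II molecules of the macaque (the Mamu genes), whose probes may read several alleles or related genes and are uncertain in that respect. From day 4 to day 7 over both doses, 7 of the 9 were lower at an adjusted p under 0.05, against 14.1% of all named genes, and the median difference of the 9 was -0.83 against 0.02 for all named genes. The classical chains among them were MAMU-DRB1 (-1.02, adjusted p = 4.1e-05), MAMU-DQB1 (-0.96, adjusted p = 0.039), MAMU-DRA (-0.81, adjusted p = 0.0052) and MAMU-DPB (-0.69, adjusted p = 0.023). The chaperone chains that exchange the invariant chain remnant for peptide were MAMU-DMA (-0.87, adjusted p = 0.00015) and MAMU-DMB (-0.83, adjusted p = 0.00051). MAMU-DOB, a chain of the regulator of that chaperone, differed by -1.03 (adjusted p = 0.043), and its adjusted p was over 0.05 without any 1 of 10 of the 16 animals. Only MAMU-DRB1 and MAMU-DOB also passed the 2-fold threshold, against 2.39% of named genes called lower. MAMU-DQA1 (-0.46) and MAMU-DOA (-0.01) did not pass. With the mean of each group subtracted, CD74 correlated with the 9 at a median r of 0.35 (0.12 for MAMU-DQA1 to 0.83 for MAMU-DRA). With the 7 Mamu class I molecules the median was 0.52.

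MAMU-DRB1 showed the contrast most clearly by animal. Its level was 5.30 to 5.87 on day 4 after 6.7 Gy and 5.49 to 5.89 after 7.4 Gy. On day 7 it was 4.35 to 4.71 and 4.46 to 4.89, with no overlap between the 8 animals of each day. The control animals, at 4.51 to 5.30, overlapped the day 7 range and touched the lowest day 4 animal.

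Against control on day 4, MAMU-DMB was higher after both doses, by 0.87 (adjusted p = 0.013) and 0.78 (adjusted p = 0.012), and MAMU-DRB1 was higher after 7.4 Gy by 0.59 (adjusted p = 0.027). The adjusted p alone was passed in the higher direction by 5.54% of named genes after 6.7 Gy and 10.6% after 7.4 Gy. Against control on days 7 and 12, 0 of the 9 class II molecules passed the adjusted p (limma) after either dose. The lowest was 0.056, on day 7 after 6.7 Gy. Their median differences after the lower and the higher dose were -0.77 and -0.39 on day 7. On day 12 they were -0.38 and 0.07. From day 4 to day 12, MAMU-DRB1 (-0.61, adjusted p = 0.019) and MAMU-DMB (-0.61, adjusted p = 0.017) were lower. Without replicate 2 on day 12 after 6.7 Gy neither of these passed. Without replicate 2 on day 12 after 7.4 Gy MAMU-DMB did not pass, and MAMU-DRB1 had no other value in that group and could not be fitted.

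The count of 7 class II molecules ranged from 4 to 7 over the alternatives. It was 4 with slide as a block or without replicate 3 of the 6.7 Gy day 4 group, and the number that also passed 2-fold ranged from 0 to 3. The median difference stayed between -0.95 and -0.75 over all of them.

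**Figure D3:**
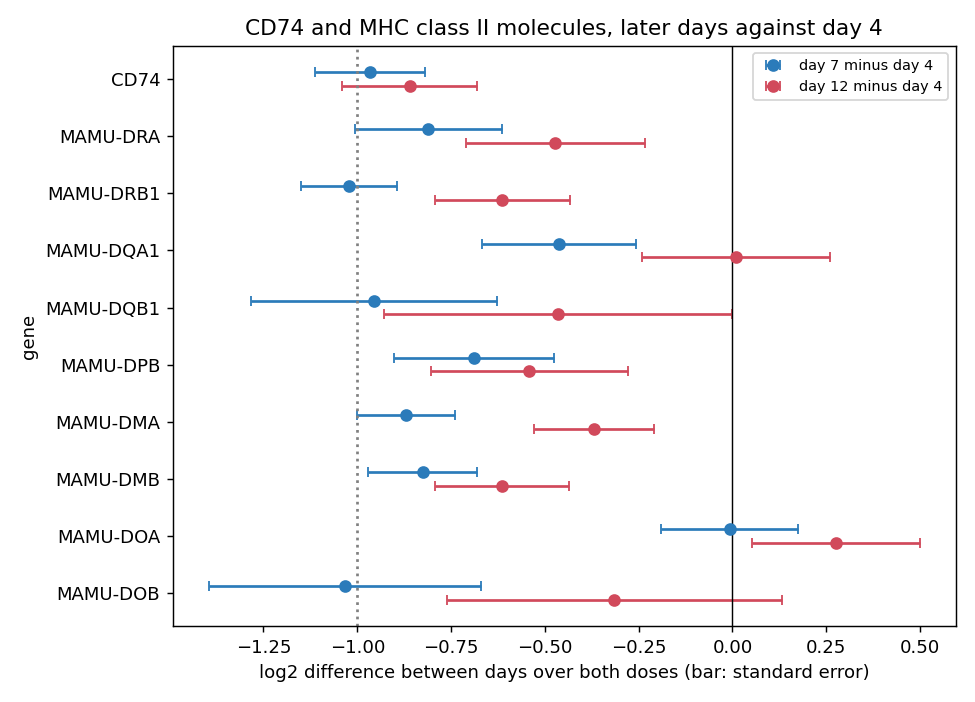
Difference between days (horizontal axis, log2, over both doses) for CD74 and the 9 MHC class II molecules; blue points are day 7 minus day 4, red points day 12 minus day 4, bars are standard errors and the dotted line marks a 2-fold lower level. CD74 and 7 molecules lie between -1.03 and -0.69 on day 7, with MAMU-DQA1 and MAMU-DOA nearer to 0.

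Of the other class II genes, CTSL and MARCHF8 were called on day 4 after both doses, of 10 tested. CTSL, a lysosomal protease that trims the invariant chain in some antigen-presenting cells, rose by 1.25 (adjusted p = 0.023) after 6.7 Gy and by 1.16 (adjusted p = 0.019) after 7.4 Gy, where 2.36% and 4.24% of named genes were called higher. Replicate 2 on day 4 after 6.7 Gy, at 3.02 against 1.07 to 1.61 in the other 3, raised the first value, which was 0.81 without it (adjusted p = 0.057). The call was also lost without control replicate 1 (adjusted p = 0.053) or 4 (0.068), and that after 7.4 Gy without control replicate 4 (0.060) or replicate 1 of the group (0.060). MARCHF8, a ubiquitin ligase that removes class II molecules from the cell surface, fell by 1.37 (adjusted p = 0.0026) and 1.50 (adjusted p = 0.00041), where 1.89% and 3.99% were called lower. The MARCHF8 levels were 3.19 to 3.70 in controls, 1.57 to 2.33 on day 4 after 6.7 Gy and 1.73 to 2.18 after 7.4 Gy, without overlap. On day 7 they were 2.62 to 3.96 over both doses. From day 4 to day 7 MARCHF8 rose by 1.33 (adjusted p = 4.4e-05) and CTSL fell by 1.02 (adjusted p = 0.0038), or by 0.80 without replicate 2 on day 4 after 6.7 Gy. By day 7, 5 of the 10 were lower than on day 4 at an adjusted p under 0.05, against 14.1% of all named genes. They were CTSL, CD80, IFI30, CD86 and CD40, named after their values were seen, of which CD80, CD86 and CD40 are co-stimulators on antigen-presenting cells and IFI30 is a lysosomal thiol reductase.

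Cell type markers moved with CD74. The summed signal of the 7 macrophage and monocyte markers, all well above background on every array, ranged from 58.0 to 88.4 times the 75th percentile in controls. It was 67.1 to 99.0 and 87.8 to 122 on day 4 after the lower and the higher dose, 43.0 to 67.3 and 43.3 to 97.5 on day 7, and 73.4 to 86.0 and 72.3 to 85.0 on day 12. On day 12 the macrophage sum was inside the control range and below the 4 animals on day 4 after 7.4 Gy, and CD74 was below those 4 animals too, with 3 of 4 animals below every control. Across the 24 animals CD74 correlated with this sum at r = 0.77, and at r = 0.71 once the mean of each group was subtracted from both. The sum of the 8 dendritic cell markers, of which 2 were well above background on all arrays, was 0.544 to 2.07 in controls, 0.593 to 1.36 on day 4, 0.420 to 0.693 on day 7 and 0.616 to 0.674 on day 12. It correlated with CD74 at 0.75 over all animals and at 0.59 within groups, and the sum of T and NK lymphocyte markers did so at 0.68 and 0.48. For the 7 B lymphocyte markers the values were 0.29 and 0.15, and for the endothelial markers 0.61 and 0.10. CD74 correlated with the epithelial sum at r = -0.77 over all animals and at -0.27 within groups. These points share arrays and scaling, and the part of the cell types in the CD74 result was not tested.

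Of the marker genes, those called with the highest or the lowest change in a group against control were as follows. The epithelial genes KRT20 (-1.34 on day 4 after 6.7 Gy, adjusted p = 0.0014) and VIL1 (-1.63 on day 4 after 7.4 Gy, adjusted p = 4.2e-05) were lower, and VWF of endothelium (1.23, adjusted p = 0.00058, 3 arrays) and LYZ of macrophages (2.15-fold, adjusted p = 0.045) were higher on day 4 after 7.4 Gy. The LYZ call was lost without control replicate 1 or 4 or replicate 1, 2 or 3 of the group (log2 0.81 to 1.11). CLEC9A, a receptor of cross-presenting dendritic cells, was lower on day 4 after both doses (-2.24 and -2.06, adjusted p = 0.044 and 0.040) and on day 7 after 6.7 Gy (-3.35, adjusted p = 0.042), with 2, 3 and 1 of 4 arrays of these groups well above background. Each of these calls was lost without any 1 of 5 or 6 of the 8 animals. On day 7 after 7.4 Gy no array had it well above background, and it was at least 11.7-fold lower than in controls (adjusted p = 0.0034). GZMK of T and NK lymphocytes was lower on day 7 after 6.7 Gy (-2.71, adjusted p = 0.046), a call lost without any 1 of 6 of the 8 animals. For this bound the control mean was set against a mean in which each array of the group had the weakest signal of its probes well above background, or the CLEC9A signal where that was higher.

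By their brightest probes, the 5 class I genes showed no difference that passed the test. The levels of PSMB9, NLRC5 and TAP1 spread widely between animals of the same group. NLRC5 is the transactivator that drives the promoters of class I genes (probe A_01_P1794156). The controls read 2.43, 4.38, 4.63 and 2.90, and the day 4 animals 2.50, 2.21, 3.22 and 4.14 after 6.7 Gy and 3.81, 3.18, 4.36 and 3.97 after 7.4 Gy. On day 7 the levels were 4.25, 4.44, 4.62 and 3.35 after 6.7 Gy and 4.48, 4.73, 3.51 and 3.55 after 7.4 Gy. Controls 1 and 4 were low and controls 2 and 3 high, and the control range held all but 1 of the 8 animals on day 7. On day 12 the values were 4.63 and 2.87 after 6.7 Gy and 5.14 and 4.30 after 7.4 Gy. The difference from control was largest on day 12 after 7.4 Gy, at 1.14 with a 95% interval of -0.21 to 2.48 (adjusted p = 0.79).

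PSMB9 is the subunit that replaces a constitutive catalytic subunit in the immunoproteasome (probe A_01_P007864). In controls it read 3.53, 4.75, 4.53 and 4.17. On day 4 it read 3.50, 2.80, 4.12 and 5.20 after 6.7 Gy and 4.82, 3.34, 5.29 and 5.37 after 7.4 Gy. On day 7 after 7.4 Gy the levels were 6.07, 4.61, 3.48 and 3.91, so that the highest of all animals with a value and an animal below every control stood in the same group. After 6.7 Gy the day 7 animals were close together, at 4.31, 4.68, 4.58 and 4.72. On day 12 only 1 animal per dose had a usable spot, and 7.4 Gy against control was -0.10 with an interval of -1.94 to 1.75. The second PSMB9 probe followed the first within groups at r = 0.93. It had a value in every day 12 animal, with means of 3.01 after 6.7 Gy and 3.88 after 7.4 Gy against 3.55 in controls. After 7.4 Gy its difference from control thus had the opposite sign.

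TAP1, a chain of the peptide transporter (probe A_01_P018364), read 3.40 to 4.60 in controls, 2.73 to 4.50 and 3.53 to 5.03 on day 4 after the lower and the higher dose, and 3.04 to 5.22 on day 7 after 7.4 Gy. Its differences from control lay between -0.60 and 0.31. B2M, the light chain of every class I molecule (probe A_01_P002071), read 7.08 to 8.17 in controls, and its differences lay between -0.56 and 0.46. The lowest, on day 12 after 6.7 Gy, rests on 1 animal. The 2 dimmer B2M probes had both animals of that group, with means of 5.69 and 7.04 against 5.93 and 7.07 in controls. For B2M 1 spot and for TAP1 1 spot were marked as outliers and were left out.

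TAPBP, tapasin, was the steadiest class I gene (probe A_01_P1743946). It read 4.82, 5.04, 5.17 and 5.11 in controls and 4.76, 4.24, 4.59 and 4.88 on day 4 after 7.4 Gy, where 3 of 4 animals lay below every control. The difference of -0.42 (SE 0.16) did not pass the test (adjusted p = 0.073). Over the alternatives it was -0.56 to -0.14 (adjusted p 0.017 to 0.64 in limma or the t-test). The 3 TAPBP probes did not give 1 answer in size: the dimmest, A_01_P002362, was lower by 0.82 on day 4 after 7.4 Gy (adjusted p = 0.034), and the middle one differed by -0.32 (adjusted p = 0.097). Within groups the brightest probe correlated with the others at 0.04 and 0.32.

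PSMB8, a further immunoproteasome subunit, was matched through its gene ID alone. It read 3.65 to 4.05 in controls and 2.58 to 6.13 over the irradiated animals. On day 4 its differences from control were 0.42 (adjusted p = 0.70) and 0.73 (adjusted p = 0.41). On day 4 after either dose and on day 7 after 7.4 Gy there were animals both above and below the control range, and on day 7 after 6.7 Gy 3 of 4 lay above it and none below. On day 12 it read 4.67 and 4.50 after 6.7 Gy and 4.31 and 4.36 after 7.4 Gy, above every control. On the dimmer probe, replicate 2 on day 12 after 7.4 Gy, at 2.73, lay inside the control range of 2.44 to 2.78.

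The dose comparisons called no member and no gene at all on day 4, 7 or 12, so their background was 0%. On day 4 the levels after 7.4 Gy were above those after 6.7 Gy by 0.89 for TAP1 (95% interval -0.10 to 1.88), 0.82 for NLRC5 (-0.28 to 1.91) and 0.80 for PSMB9 (-0.37 to 1.97). Each interval includes 0 and reaches nearly 2 on the log2 scale. The change of the dose difference from day 4 to day 7 passed for no member, with 0.00743% of named genes called. Day 12 against day 7 called no member either, with 0.134% of named genes called. The smallest adjusted p of a member in those comparisons was 0.73.

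The spread between animals was wide for 3 of the 5 class I genes. Within groups the SD was 0.84 for PSMB9, 0.79 for NLRC5 and 0.71 for TAP1, which lay at percentiles 93.3, 91.8 and 88.9 of all named genes. The median gene had an SD of 0.32. Among genes of a similar level (within 1 log2 unit) the percentiles were 98.9, 98.7 and 97.7. B2M had 0.39, CD74 0.29 and TAPBP 0.22, at percentiles 62.9, 44.9 and 23.3 of all named genes and 85.4, 70.2 and 40.3 at a similar level. Expressed as the highest over the lowest animal, signals differed 9.62-fold for PSMB9, 7.67-fold for NLRC5, 5.60-fold for TAP1, 2.40-fold for B2M and 2.07-fold for TAPBP. Group explained 20.7% of the variance of PSMB9, 21.5% of TAP1 and 32.9% of NLRC5, against 74.8% for CD74 and 40.3% for the median gene.

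The variation was shared between class I genes. With the mean of each group subtracted, the 6 pairs among B2M, TAP1, PSMB9 and NLRC5 correlated over 21 to 23 animals at r = 0.69 to 0.89 (Spearman's rho 0.64 to 0.89). Leaving out the 2 animals farthest from the median gave 0.67 to 0.88, and subtracting slide means as well gave 0.67 to 0.89. Within the 2 scan days, of 8 and 16 arrays, the range was 0.49 to 0.97. The highest pair was TAP1 with PSMB9 and the lowest B2M with NLRC5. TAPBP followed the 4 less closely (0.33 to 0.52), and CD74 correlated with them at 0.14 to 0.46. These correlations are given as a description, without p, and the genes of a pair share an array and its scaling.

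**Figure D4:**
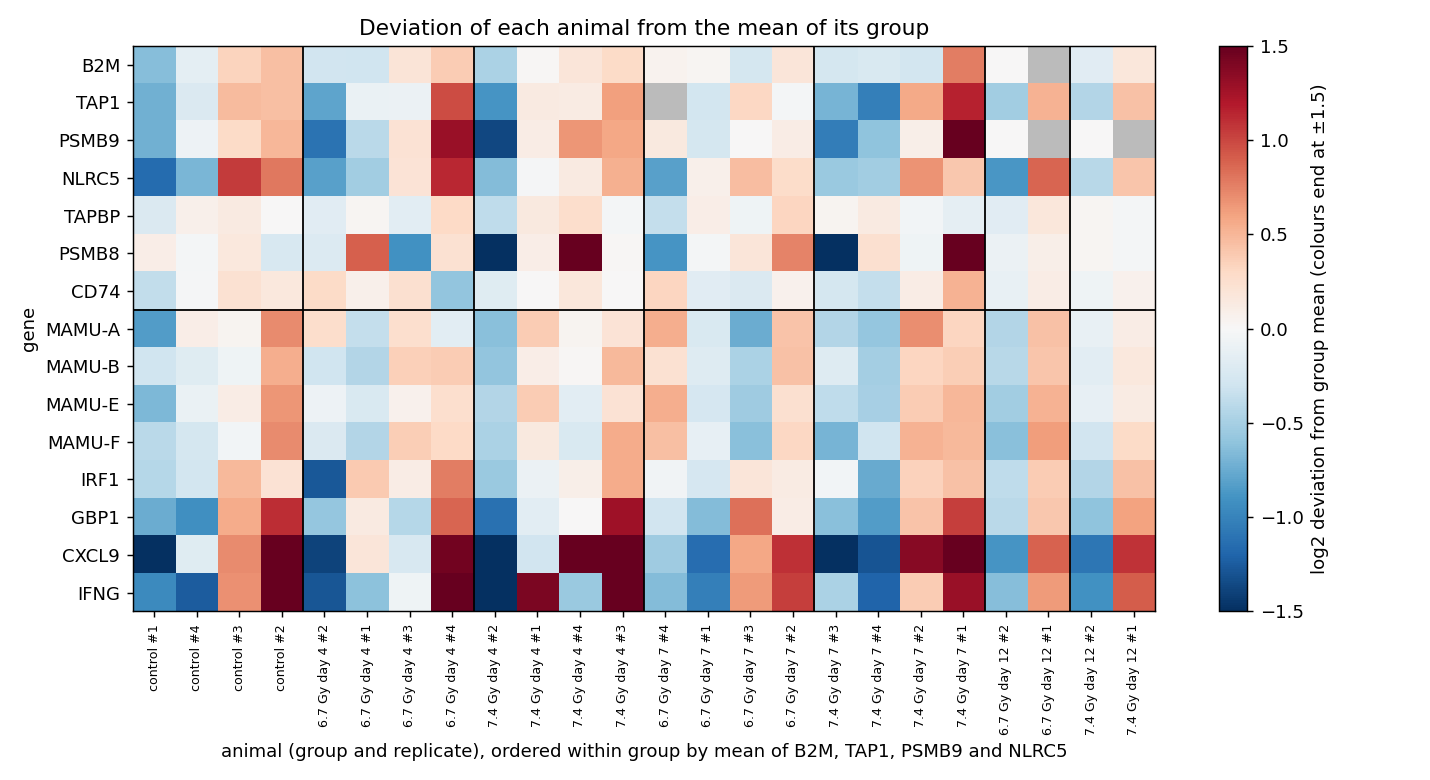
Deviation of each animal from the mean of its group (colour, log2, red higher and blue lower) for 15 genes (vertical axis) in 24 animals (horizontal axis), ordered inside each group from the lowest to the highest class I level. Grey marks a spot left out, an animal whose group partner was left out is at 0 by construction, and B2M, TAP1, PSMB9 and NLRC5 turn from blue to red together with the Mamu class I and interferon genes below them.

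The same animals stood high or low in genes outside the list. The mean deviation of B2M, TAP1, PSMB9 and NLRC5 correlated over 24 animals with CXCL9, a chemokine induced by interferon gamma, at r = 0.90 (rho 0.91; 0.88 without the 2 farthest animals; 0.91 within slides). With GBP1, an interferon-induced GTPase, it was 0.86, with IFNG itself 0.85 and with IRF1, which acts on class I promoters, 0.83. These genes were picked after their values were seen. A gene whose spot was left out did not enter the mean of that animal. Replicate 1 on day 12 after 6.7 Gy therefore rests on TAP1 and NLRC5 alone. The 2 animals of a day 12 group deviate by equal amounts in opposite directions, by construction. IFNG was dim, at -6.46 to -1.90 over the animals, and CXCL9 ranged from -4.89 to 2.13. The lowest value of each was in a control. Over 13416 genes the median correlation was -0.06, 3.98% exceeded 0.5 and 5.06% lay below -0.5.

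Counts by list showed the extent. All 7 Mamu class I molecules measured exceeded 0.5, with MAMU-B at 0.79, MAMU-F at 0.75, MAMU-E at 0.74, MAMU-I at 0.67, MAMU-A3 at 0.66, MAMU-AG at 0.65 and MAMU-A at 0.56. So did 10 of 14 genes of interferon gamma signalling and 7 of 17 other class I genes, among them PSMB10 at 0.77 and the proteasome activator chain PSME2 at 0.71. In that list 2 genes lay below -0.5, LNPEP (-0.56), an aminopeptidase, and RFXANK (-0.55), a subunit of the RFX complex on MHC promoters. Of the 16 constitutive proteasome subunits 3 exceeded 0.5 and 0 lay below -0.5, and the catalytic subunits PSMB5 (0.19) and PSMB7 (-0.05) did neither. None of the 9 MHC class II molecules exceeded 0.5.

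Properties of the arrays and of the tissue moved with the class I mean too. It correlated within groups with the 75th percentile of the array at r = 0.52 and with the share of probes well above background at -0.53. The sum of 9 T and NK lymphocyte markers, of which 7 were well above background on all arrays, correlated at 0.66, with a range of 26.0 to 28.4 in controls and 11.1 to 28.4 over all animals. Macrophage, epithelial and smooth muscle sums gave 0.36, 0.12 and -0.38. The part of these in the shared variation was not tested.

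**Figure D5:**
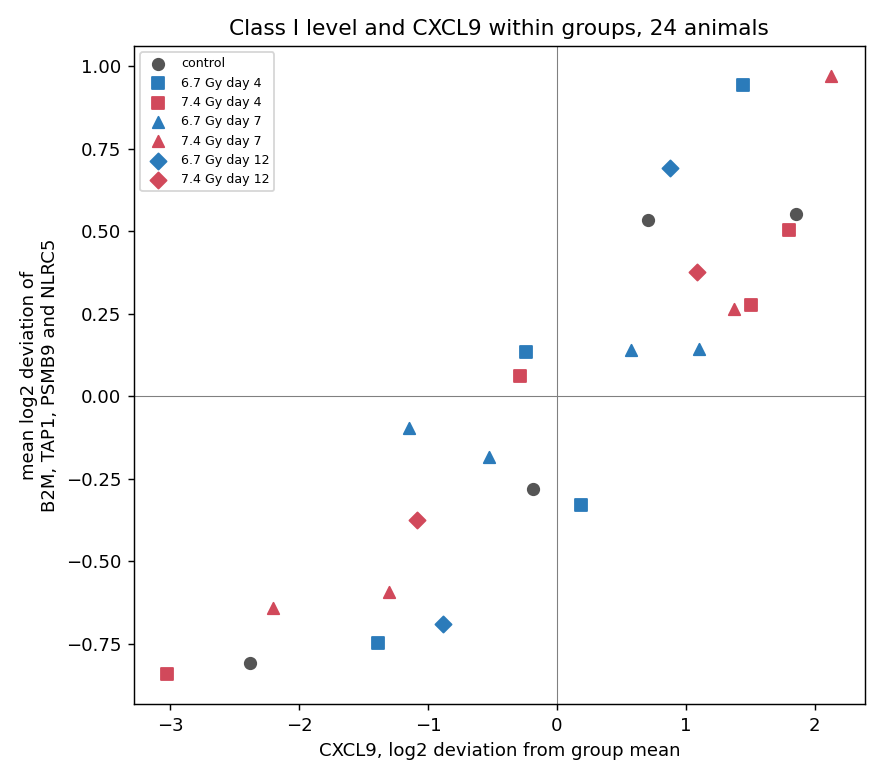
Mean deviation of B2M, TAP1, PSMB9 and NLRC5 from the group mean (vertical axis, log2) against that of CXCL9 (horizontal axis, log2) in 24 animals; colour and shape give the group. Animals of every group, controls included, lie along 1 rising band (r = 0.90). The 2 points of a day 12 group mirror each other by construction.

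Each gene's closest companions were found by correlation over the arrays with a value (23 for B2M and TAP1, 22 for PSMB9 and 24 for the others), leaving out the other members. For B2M they were MAMU-B (0.77), MAMU-E (0.76) and MAMU-F (0.76), which are class I heavy chains. For TAP1 they were PARP14 (0.85), SAMD9L (0.84) and PARP9 (0.81), and those of PSMB9 included PLAAT4 (0.84) and SAMD9L (0.84). NLRC5 was closest to IRF1 (0.80), ZSCAN16 (0.78) and ALPK1 (0.78). CD74 was closest to AP1M1 (0.91), ENPP2 (0.90) and PLEKHO2 (0.89), and TAPBP to SLC35A2 (0.90), ELOB (0.88) and OLFML2A (0.87). The interferon genes among them belong to TAP1, PSMB9 and NLRC5, and none was among the 3 closest to CD74 or TAPBP.

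Other parts of the pathway were followed by list, against control. The 7 Mamu class I molecules differed by -0.18 to 0.13 on day 4 after 6.7 Gy and by 0.04 to 0.51 after 7.4 Gy, from MAMU-B to MAMU-I, and 0 were called on any day by limma or by the methods' t-test (0 also at an unadjusted p under 0.05). Of 14 genes of interferon gamma signalling, 4 were called higher on day 4 after 7.4 Gy, against 4.24% of named genes. CXCL10, a chemokine that attracts T cells, rose 9.01-fold (log2 3.17, adjusted p = 0.0036). Its levels were -0.79, -1.31, -0.75 and -2.14 in controls and 2.43, 0.29, 3.39 and 1.58 in that group, without overlap. The other 3, named after their values were seen, were IDO1 (2.62), GBP1 (2.18) and WARS (1.85), of which IDO1 was lost without control replicate 1 or 4 or without replicate 3 of the group, and the methods' t-test called 1 of the 14. After 6.7 Gy 0 of 14 were called (1 at an unadjusted p under 0.05). The difference between the doses was called for no gene. Between day 4 and day 12 these 4 genes fell, CXCL10 by 2.52 (adjusted p = 0.0052), against 3.51% of named genes called lower. Without replicate 2 of either day 12 group IDO1, GBP1 and WARS were no longer called, and IDO1 was lost without replicate 1 on day 12 after 6.7 Gy as well.

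Of 16 constitutive proteasome subunits, 3 were higher on day 4 after 6.7 Gy and 6 after 7.4 Gy at an adjusted p under 0.05, against 5.54% and 10.6% of named genes, with medians of 0.39 and 0.41, and 0 reached 2-fold. Of 17 other class I genes, 3 were higher and 1 lower by that rule on day 4 after 7.4 Gy, against 10.6% and 11.6% of named genes, and 0 passed it after 6.7 Gy (7 at an unadjusted p under 0.05, against 27.7% of named genes). The counts of these 17 genes lie near the background, and those of the 16 constitutive subunits lie above it. ERAP2, an aminopeptidase that trims class I peptides, rose from day 4 to day 7 by 1.06 (adjusted p = 0.023), against 2.65% of named genes called higher. That call was lost without any 1 of 6 of the 16 animals (0.90 to 0.98). Among 5 lipid and metabolite presenters of the CD1 and MR1 kind, 2 were lower by the adjusted p alone on day 4 after 7.4 Gy, against 11.6% of named genes, and 0 after 6.7 Gy (3 at an unadjusted p under 0.05). CD1C, a lipid presenter of dendritic cells, was called on day 4 after 7.4 Gy (-1.83, adjusted p = 0.011), with a probe well above background on 3 of 4 control arrays and 1 of 4 arrays of that group.

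Set on the same array, the class I mean and CD74 moved apart over time, given as values without a test. A constant shift of a whole array leaves this difference unchanged, and other effects of the arrays on it were not tested. Day and array position cannot be told apart here either. The mean of the 5 class I genes minus CD74, relative to controls, was -0.32 to 0.29 in the controls. It was -1.64 to 0.69 on day 4 after 6.7 Gy and -0.84 to 0.12 after 7.4 Gy, against 0.29 to 1.18 and 0.36 to 0.84 on day 7. All 8 animals on day 7 stood above the 4 controls (the lowest of them only just), and day 12 ranged from -0.00087 to 0.88. A gene whose spot was left out did not enter the class I mean of that animal. The lowest animal on day 7 (replicate 4 after 6.7 Gy) had no TAP1 value. The highest on day 12 (replicate 1 after 6.7 Gy) had no B2M or PSMB9 value. Replicate 1 on day 12 after 7.4 Gy had no PSMB9 value. The immunoproteasome mean (PSMB8, PSMB9 and PSMB10) minus the mean of PSMB5, PSMB6 and PSMB7 overlapped the controls (-0.48 to 0.26) in every group. PSMB6 had a value on 15 of the 24 arrays and PSMB9 on 22, and a subunit without a value was left out of its mean.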

How the data were processed

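RNA from the colon of 24 macaques was hybridised to 1-colour (Cy3) Agilent rhesus arrays, 1 array per animal. Per the file headers, the authors extracted each spot's intensity with Feature Extraction 11.0.1.1 on a layout built on rheMac2, with local background subtracted and trends across the array corrected. The scanner files hold this processed intensity, not normalized between arrays, with 0 or 1 flags (other). The deposited raw intensity table matched them within 0.001 (log2) for 100% of values outside outlier spots. The deposited normalized table holds log2 values scaled to the 75th percentile and centred per probe by the authors, and served as an alternative. A text label gives another last day than the sample labels, which were followed.

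Outlier spots were set to missing, spots of a probe averaged, and the log2 signal taken minus the 75th percentile of the array. Probes well above background on at least 2 arrays were kept (38220 of 43603), and 38200 had a value in every group. A gene was represented by its brightest probe. Names came from the series table (18640 probes) or by accession or gene ID from RefSeq's T2T-MMU8v2.0 table (3268). No coordinates or sequences are given. limma 3.58.1 (R 4.3.3) estimated a mean for each group from the 24 arrays together. Two-sided p-values were adjusted by Benjamini-Hochberg over all probes, and a call needs an adjusted p under 0.05 and a 2-fold change. The script was tested on simulated data. The number of animals limits the precision.

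The members and companion lists were chosen with earlier results of these data known. The lists are MHC class I and class II molecules, other class I and class II machinery, constitutive proteasome subunits, interferon gamma signalling, CD1 and MR1 presenters and markers of 7 tissue or cell types. Every member and MHC molecule was named, and from the other lists the called gene with the highest and the lowest change in each group against control. The 3 genes most like each member were ranked by Pearson correlation over the arrays, and 1 gene is not reported here. Alternatives were other background correction (normexp on median signals, offset 50), scalings, filters, tests, probe summaries, blocks for slide, array position, scan day and replicate number, groups compared alone, and leaving out each replicate.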

Additional observations from a re-analysis of the deposited data

Results flagged for a closer look

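In 4 animals on day 7 after 7.4 Gy, B2M of replicate 1 stood apart, at 8.27 on the log2 scale against 7.23 to 7.28 in the others, a gap of 0.956 of the range of the group. It was 1 of 34 groups of 4 tested, and about 1 in 20 is expected by chance. The 2 dimmer B2M probes placed both replicates 1 and 2 high (6.58 and 6.46, and 7.73 and 7.69), against 5.22 to 6.70 in replicates 3 and 4.

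The following differed between days over both doses at an adjusted p under 0.05 in limma. CD74 was lower on day 7 than on day 4 by a log2 difference of -0.97 and on day 12 by -0.86. Among the class II molecules, the day 7 differences from day 4 were -1.03 for MAMU-DOB, -1.02 for MAMU-DRB1, -0.96 for MAMU-DQB1, -0.87 for MAMU-DMA, -0.83 for MAMU-DMB, -0.81 for MAMU-DRA and -0.69 for MAMU-DPB. On day 12 they were -0.61 for MAMU-DRB1 and -0.61 for MAMU-DMB. CTSL differed by -1.02 on day 7 and -1.03 on day 12, and MARCHF8 by 1.33 and 1.51. ERAP2 differed by 1.06 on day 7 and CXCL10 by -2.52 on day 12. Every day contrast against day 4 coincides with array position on the slide, and day and position cannot be told apart.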

How the results depend on the processing

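The count of 0 called members did not change under any alternative in 12 of the 14 comparisons. From day 4 to day 7 it was 1 with normexp background correction, 1 with spike-in scaling and 1 with no fold threshold, and 0 to 1 when 1 replicate was left out. It was 1 without replicate 4 of the 6.7 Gy day 4 group, without replicate 4 of the 6.7 Gy day 7 group or without replicate 1 of the 7.4 Gy day 7 group. From day 4 to day 12 it was 1 with normexp and 1 with no fold threshold. The gene was CD74 each time, since its difference lies near 2-fold: -1.07 to -0.85 for day 7 against day 4 (adjusted p 3.9e-05 to 0.0014) and -1.05 to -0.76 for day 12 (adjusted p 0.00016 to 0.0081) over the alternatives, and -1.06 to -0.91 and -0.96 to -0.81 when 1 replicate was left out.

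With the replicate number as a block the count was 0 in all 14 comparisons. The numbers do not pair the animals: same-numbered animals of different groups deviated together with a median r of 0.00383 (-0.23 to 0.24), against -0.00247 for other numbers and 0.13 for animals on 1 slide. Array position could be fitted in 7 comparisons. There it turned the uncalled day 4 differences after 7.4 Gy, for PSMB9 from 0.46 to -1.05 (adjusted p = 0.42) and for NLRC5 from 0.24 to -1.08 (adjusted p = 0.45). The cause was not tested. Of 1377 recomputed changes of single members, 73 changed sign without being called in either setting, and 8, all of CD74, passed the threshold only in the alternative. Spike-in scaling moved the median of all named genes by up to 0.37, from 0.073 to 0.45 on day 12 after 6.7 Gy. On day 12 only 2 animals per dose, and for PSMB9 and B2M as few as 1, limit what could be detected.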
